A study of Mus musculus with 18 samples.

Results

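The genes described here carry symbols of ion channel subunits and were chosen by name. They are the genes whose symbol starts with Kcn, Cacna, Cacnb or Cacng, or with Scn or Hcn before a number, without Kcnip1 to Kcnip4, Kcnd2 and Kcnd3. A mean of at least 1 CPM (a gene's counts scaled to the library's total) over the 9 overexpression libraries was also required. The name rule found 136 genes, of which 36 lay below that level and 100 were kept, among 37607 genes with a symbol. Just inside the threshold were Kcna5 at 1.03 and Scn7a at 1.05 CPM, and just outside were Kcnk13 at 0.874 and Kcnh4 at 0.807 CPM. The working label was voltage-gated ion channels, and the names take in more than that. Of the 100 genes, 9 are inward rectifiers (Kcnj), 7 are two-pore potassium channels (Kcnk), 6 are Cacng genes, some of whose products escort AMPA receptors, and 4 are antisense or opposite-strand RNAs (Kcnab3os, Kcnd3os, Kcnmb4os1 and Kcnmb4os2) that are no channels.

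Voltage-gated channels open or close with the membrane potential. Sodium channels carry the upstroke of the action potential and potassium channels end it and set the firing rate. Calcium channels couple depolarisation to transmitter release and to signals in the cell, and HCN channels open on hyperpolarisation and hold the resting potential of many cortical neurons, those of entorhinal layer II among them. The pore is formed by alpha subunits, and auxiliary subunits set how much of it reaches the membrane and how it gates.

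RNA was taken by translating ribosome affinity purification (TRAP), which pulls down tagged ribosomes of one cell type with their mRNA. It came from mouse brain in 18 libraries, each of 1 animal whose left and right entorhinal cortex were combined. The silencing experiment had 4 mice with a Ptbp1 shRNA vector and 5 with a scrambled shRNA vector. The overexpression experiment had 5 mice with a vector for Ptbp1 and 4 with its control, and all vectors carried mCherry. The authors left out 1 further Ptbp1 shRNA mouse and 1 further control vector mouse, which had no mCherry reads. Ptbp1 encodes an RNA-binding protein that keeps many neuronal exons out of mRNA. The title names entorhinal cortex layer II neurons and the tissue label reads hippocampus. The sources used here give no strain, age, genotype or driver of the ribosome tag.

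The libraries held 18288627 to 46544178 counts in genes. Ptbp1 lay between 118 and 158 CPM with the Ptbp1 vector and between 9.96 and 17.2 CPM with the control vector, 10.1-fold higher on the log2(CPM + 0.5) scale (exact two-sided permutation p = 0.0159, the smallest that 126 splits allow). With the Ptbp1 shRNA it lay between 0.101 and 13.1 CPM and with the scrambled shRNA between 0.349 and 9.11 CPM (exact two-sided permutation p = 0.921), so the library labels of silencing are not borne out by the targeted gene, and each direction below is that of the libraries labelled Ptbp1 shRNA. Superficial excitatory neuron markers (Slc17a7, Camk2a and 7 others) summed to 1653 to 4755 CPM in silencing and 2236 to 3249 CPM in overexpression. Summed interneuron markers reached 184 to 368 CPM over both experiments, astrocyte markers 6.82 to 42.8 CPM and microglia markers 0.0561 to 18.9 CPM. Oligodendrocyte and precursor markers summed to 24.5 to 65.1 CPM with the Ptbp1 shRNA, 16.9 to 46.1 CPM with the scrambled shRNA and 74.7 to 103 CPM in overexpression. Vessel markers summed to 15.7 to 173 CPM with the Ptbp1 shRNA, 12.6 to 72.4 CPM with the scrambled shRNA and 11.4 to 54.8 CPM in overexpression. Of these lists 1 gene each, Mag, C1qa (microglia) and Cldn5, was at 0 in every silencing library. The part of these cell types in the results was not tested.

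A pair of neighbouring exons of a channel gene can be spliced in turn, 1 in each transcript, and such pairs are the classic way in which channel genes change their product. The annotation held 10 such pairs among the 100 genes. The pair of Cacna1b is shown, since its bins could be matched and its reads assigned to an exon. An exon bin is a stretch of the flattened annotation, with its own read count. The Cacna1b pair lies on chromosome 2 in mm10, minus strand. The sequences are coding exons read from GENCODE transcripts, 5′ to 3′, with capitals at every base that differs between the 2 exons.
Cacna1b first exon (chr2:24626823-24626919): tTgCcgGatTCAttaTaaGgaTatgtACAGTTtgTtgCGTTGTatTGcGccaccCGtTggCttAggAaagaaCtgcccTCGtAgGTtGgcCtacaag
Cacna1b second exon (chr2:24625238-24625334): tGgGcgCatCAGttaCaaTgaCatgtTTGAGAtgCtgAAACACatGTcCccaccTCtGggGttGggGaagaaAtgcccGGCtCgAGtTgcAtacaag

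The 97 bases of the 2 exons share 57 positions (58.8%). Cacna1b encodes the pore of N-type calcium channels, which trigger transmitter release. All 119 of its reads on the pair in overexpression fell on the second exon (95% Wilson interval 96.9% to 100%), and so did all 32 in silencing, every one of them from 2 libraries with the scrambled shRNA. These intervals cover counting error only.

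Levels within a gene set can be compared only per length, and are given here as CPM per kilobase of exon in the 4 control vector libraries. The calcium channel beta subunits Cacnb4 and Cacnb3 had 57.5 and 43.9. The potassium channel beta subunit Kcnab2 stood at 40.5. These 3 auxiliary subunits had higher means than every pore subunit named here, although the libraries of Kcnab2 and Cacnb3 overlapped those of the pore subunits Kcna1 and Scn2a, and only Cacnb4 lay clear of them. The highest of those pore subunits were Kcna1, a low-threshold potassium channel, at 37.5 and Scn2a, a sodium channel of excitatory neurons, at 36.7, and their ranges over libraries overlapped. Kcnq3, a subunit of the M-current that damps repetitive firing, had 33.7. Of the other sodium channel pores, Scn8a, the main pore of mature axon initial segments, had 15.5, Scn1a, prominent in interneurons, 5.78 and Scn3a 2.32.

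**Figure D1:**
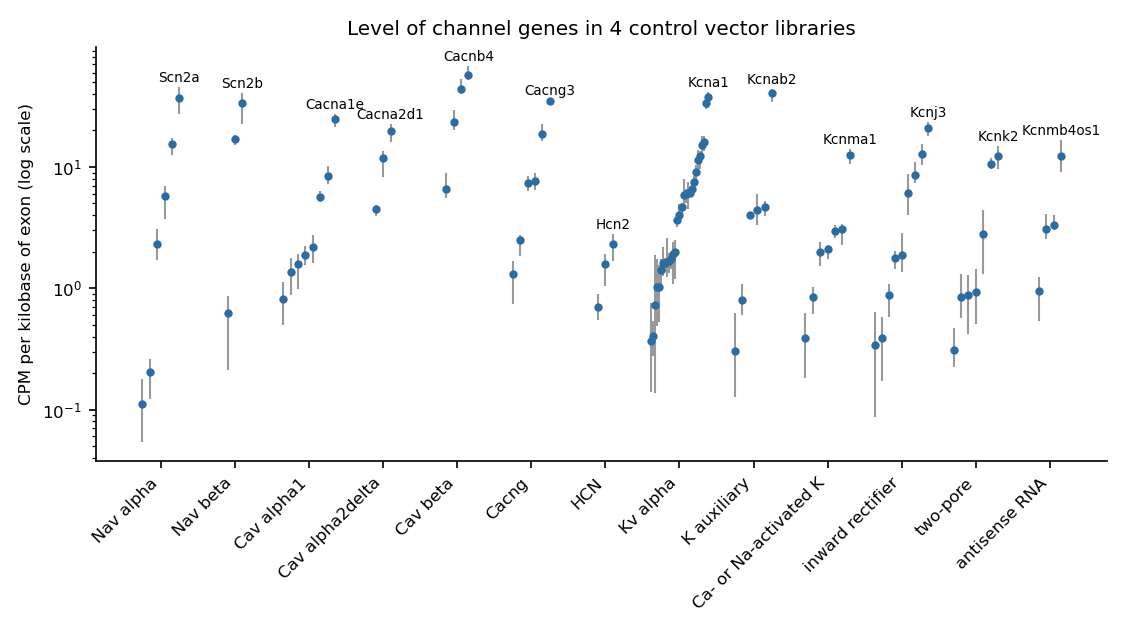
Mean level (CPM per kilobase of exon, log axis) of 95 genes by role group in 4 control vector libraries, with a line from the lowest to the highest library and the highest of the drawn genes of each group named. Cacnb4 is highest of those drawn at 57.5 and Scn7a lowest at 0.110.

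Among calcium channel pores, Cacna1e, the pore of R-type channels, led with 24.9. The P/Q-type pore Cacna1a had 5.68, the L-type pores Cacna1c and Cacna1d had 2.18 and 1.86, and the T-type pore Cacna1g had 1.37. Cacna2d1, an alpha2delta subunit, had 19.8 and Cacng3, which escorts AMPA receptors, 34.8. Among HCN channels Hcn2 had 2.32, Hcn3 had 1.59 and Hcn4 0.695. Kcnj3, a subunit of the G-protein-gated channels that inhibitory receptors open, led the inward rectifiers at 21.2, and Kcnj10, an astrocyte channel, had 0.387. Kcnk2, a mechanosensitive two-pore channel, had 12.2, Kcnma1, the pore of BK channels, 12.5, and Kcnmb4os1, an RNA opposite Kcnmb4, 12.4. The sources used here do not say if counting used the strand, and without it reads of Kcnmb4 and Kcnmb4os1 cannot be told apart.

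How evenly reads covered these genes differed between the experiments. Over the 49 genes with at least 10 exon bins, the fullest bin held a median of 21.4% to 24.9% of a gene's reads in the overexpression libraries and 27.9% to 68.8% in the silencing libraries. Scn8a had 54.7% to 64.6% of its reads in its outermost 3′ bin in overexpression and 90.7% to 97.0% in silencing. Among 648 bins of these genes averaging 20 or more counts, 0% to 0.154% were at 0 in overexpression and 4.78% to 29.3% in silencing. Replicates 2 and 3 of the Ptbp1 shRNA stood at the uneven end, with 29.3% and 20.2% of bins at 0, and scrambled shRNA replicate 5 followed at 18.4%. Silencing results are therefore also given without replicates 2 and 3 of the Ptbp1 shRNA, which leaves its replicates 1 and 4.

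**Figure D2:**
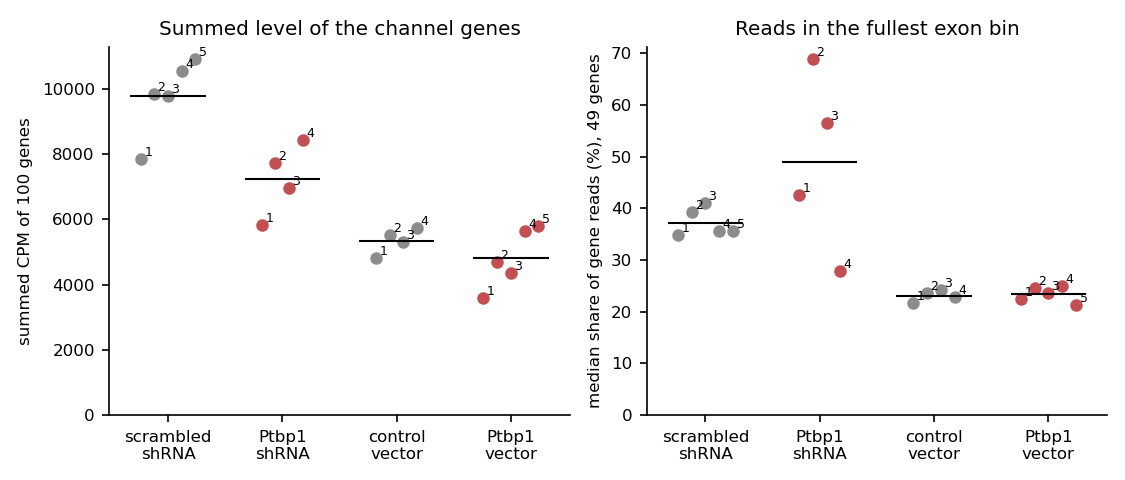
Left, summed CPM of the 100 genes in each library, numbered by replicate, with a bar at the group mean. Right, median share (%) of a gene's reads in its fullest exon bin over 49 genes. Sums run from 5831 to 8432 with the Ptbp1 shRNA and from 7849 to 10920 with the scrambled shRNA, and the share is at or below 24.9% in every overexpression library.

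The first comparison asked which channel genes differ between libraries labelled Ptbp1 shRNA and scrambled shRNA. Summed over the 100 genes, the 4 Ptbp1 shRNA libraries had 5831, 7737, 6974 and 8432 CPM and the 5 scrambled shRNA libraries 7849, 9847, 9792, 10550 and 10920 CPM. Only the highest Ptbp1 shRNA library lay above the lowest scrambled one. No channel gene passed the test. Of the 93 tested, 0 had an adjusted p under 0.05 (edgeR quasi-likelihood test, Benjamini-Hochberg over 14656 genes, of which 0%, or 0 genes, passed). At an unadjusted p under 0.05, 11 channel genes were lower (11.8%, against 5.42% of all genes tested) and 1 was higher (1.08%, against 5.76%). For 7 genes every Ptbp1 shRNA library lay below every scrambled library (7.53%, against 2.45%), and for 0 genes above (against 2.39%). DESeq2 called 9 of the 100 genes on the same counts, 8 of them lower, among 703 genes in all. How many genes DESeq2 adjusted over was not recorded, so no share of all genes is given for its calls. At an unadjusted p under 0.05 DESeq2 had 16 of the 100 genes lower (16%, against 6.07% of all genes). DESeq2 was run without the filter on low counts. Its 6.07% therefore covers more low-count genes than the 5.42% above. limma voom with quality weights called 1 of 93, Cacnb4, among 84 of 14656 genes.

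The median log2 fold change of the 93 genes was −0.45 beside 0.03 over all genes tested, and 59 (63.4%) were below 0 beside 48.8% of all genes. Without the 2 unevenly covered libraries 0 genes passed, the median was −0.42 and 69 of 98 genes (70.4%) were below 0 beside 52.6% of all genes. The summed markers of superficial excitatory neurons lay between 1653 and 2779 CPM with the Ptbp1 shRNA and between 2778 and 4755 CPM with the scrambled shRNA, and 7 of these 9 genes were below 0. The ratio of summed channel genes to these markers was 2.10, 3.10, 3.07 and 5.10 with the Ptbp1 shRNA and 1.65, 2.99, 2.70, 2.63 and 3.93 with the scrambled shRNA, and the groups overlap. Their part in the lower channel levels was not tested. In bulk RNA, fewer cells of a type and less RNA per cell cannot be told apart.

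Of the 11 lower genes 1 was a sodium channel pore, Scn8a (chr15:100869858-101045938). It had 388, 428, 426 and 399 CPM with the Ptbp1 shRNA and 440, 466, 807, 956 and 734 CPM with the scrambled shRNA. The groups did not overlap, by a narrow gap between 428 and 440 CPM, and the log2 fold change was −0.73 ± 0.24 (SE, edgeR adjusted p = 0.267). Scn2a and Scn1a had log2 fold changes of 0.19 (95% interval −0.35 to 0.73) and 0.26 (−0.49 to 1.02). Scn3a was at −0.74 (−1.50 to 0.02). In all, 3 of 6 tested pores were below 0, with a median of −0.14, and 3 of 4 beta subunits, with a median of −0.22.

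Cacnb4, a calcium channel beta subunit (chr2:52428320-52676831), had one of the clearest separations. Its levels were 329, 683, 698 and 547 CPM with the Ptbp1 shRNA and 1208, 1154, 916, 1059 and 1055 CPM with the scrambled shRNA. All 4 libraries lay below all 5 controls, and the log2 fold change was −0.93 ± 0.23 (SE, edgeR adjusted p = 0.154, DESeq2 0.0199, voom 0.045). The other beta subunits had log2 fold changes of −0.60 (Cacnb1), 0.10 (Cacnb2) and −0.34 (Cacnb3).

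Of 8 calcium channel pores 6 were below 0, with a median of −0.58. Cacna1a had 30.15, 5.36, 18.2 and 35.2 CPM with the Ptbp1 shRNA and 24.1, 41.6, 69.8, 46.6 and 68.1 CPM with the scrambled shRNA, a log2 fold change of −1.17 ± 0.53 with overlapping groups (SE, edgeR adjusted p = 0.438). Cacna1g, the T-type pore (chr11:94408391-94474198), was the 1 gene with an unadjusted p under 0.05 on the higher side. It had 2.61, 36.5, 1.09 and 16.6 CPM with the Ptbp1 shRNA and 1.38, 0.596, 1.58, 1.26 and 0.0649 CPM with the scrambled shRNA. Only replicates 2 and 4 of the Ptbp1 shRNA were above the range of the controls by a wide margin, and the log2 fold change of 3.86 ± 1.13 (SE, edgeR adjusted p = 0.219) rests on them. Cacna1c, Cacna1d and Cacna1e were at −0.89 (95% interval −2.38 to 0.60), −1.21 (−2.55 to 0.13) and −0.34 (−0.89 to 0.21). Cacna2d1 was at −0.50 (−1.06 to 0.06). Of the 6 Cacng genes 4 were below 0, and Cacng3 had 28.4, 35.5, 67.5 and 33.4 CPM against 27.9, 111, 86.1, 81.2 and 97.0 CPM, with 1 control library as low as the Ptbp1 shRNA libraries.

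Voltage-gated potassium channel pores made up 6 of the 11 lower genes, among 30 tested of which 19 were below 0 (median −0.43). Kcnv1 encodes a subunit that forms no channel alone and modifies other pores, and it had the smallest p of all 93 genes (chr15:45106284-45114920). It had 109, 207, 127 and 102 CPM with the Ptbp1 shRNA and 236, 375, 245, 266 and 525 CPM with the scrambled shRNA. The groups did not overlap, and the log2 fold change was −1.27 ± 0.31 (SE, edgeR adjusted p = 0.152, DESeq2 0.0144). Kcnf1, another such silent subunit, had 13.8, 3.15, 9.05 and 14.85 CPM against 22.8, 24.7, 23.4, 31.2 and 55.7 CPM (−1.63 ± 0.54, SE, edgeR adjusted p = 0.268). Both genes were below every control. Kcnb2, a delayed rectifier pore, was at −0.27 (95% interval −1.21 to 0.66).

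Kcnq5 and Kcnq3, subunits of the M-current, lay among the lower genes. Kcnq5 (chr1:21398403-21961942) had 30.2, 26.6, 7.09 and 21.7 CPM with the Ptbp1 shRNA and 58.0, 68.4, 56.1, 37.25 and 129 CPM with the scrambled shRNA, without overlap (−1.71 ± 0.485, SE, edgeR adjusted p = 0.211). Kcnq3, the most counted channel gene in these libraries, had 997, 1265, 1021 and 1981 CPM against 1696, 2105, 2046, 2123 and 2305 CPM. Replicate 4 of the Ptbp1 shRNA lay within the range of the controls, and the log2 fold change was −0.64 ± 0.22 (SE, edgeR adjusted p = 0.277). Kcnh5, of the ether-a-go-go family, had 1.36, 1.21, 0.112 and 0.654 CPM against 0.806, 7.99, 3.32, 33.5 and 28.6 CPM. The lowest log2 fold change of the tested genes, −4.15 ± 1.18 (SE, edgeR adjusted p = 0.211), thus stands on controls that differ among themselves from 0.806 to 33.5 CPM. Kcna1, Kcna2 and Kcna4, the low-threshold and A-type Kv1 pores, were at −0.36 (−0.93 to 0.20), 0.61 (−0.14 to 1.35) and −0.21 (−0.98 to 0.56), and Kcnc1, a pore of fast-spiking cells, at 0.57 (−0.47 to 1.62).

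Kcnma1, the BK pore that calcium and voltage open together (chr14:23289431-24014491), was the last of the lower genes. It had 148, 160, 232 and 186 CPM with the Ptbp1 shRNA and 244, 443, 403, 299 and 339 CPM with the scrambled shRNA, without overlap. The log2 fold change was −0.93 ± 0.24 (SE, edgeR adjusted p = 0.165, DESeq2 0.0136). The calcium- or sodium-activated group as a whole, Kcnma1 included, lay on both sides of 0, with 3 of 7 below and a median of 0.76. HCN genes had 3 of 4 below 0. Inward rectifiers had 3 of 8 below 0 (median 0.38) and two-pore channels 4 of 6 (median −0.38), and none of either group reached an unadjusted p of 0.05. These medians weigh weakly and strongly counted genes alike. Summed, the calcium- or sodium-activated group had 292 ± 66.4 CPM with the Ptbp1 shRNA and 486 ± 118.5 CPM with the scrambled shRNA. The inward rectifiers summed to 470 ± 146 and 554 ± 266 CPM (SD, n = 4 and 5).

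**Figure D3:**
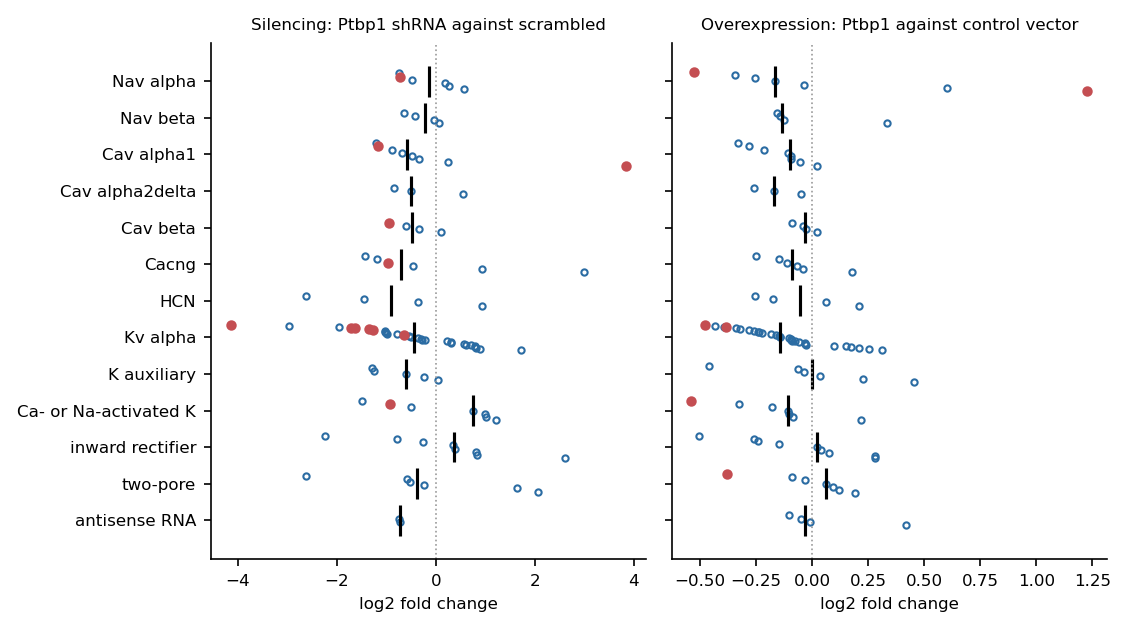
Log2 fold change of each tested gene by role group in silencing (left, 93 genes) and overexpression (right, 100 genes). Filled points have an unadjusted p under 0.05 and black lines are group medians, and the horizontal scales differ between the panels. The median over all genes shown is −0.45 on the left and −0.09 on the right.

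Of 47 partner genes of channels, listed for their role and no members of the set, 45 were tested in silencing and 0 passed. At an unadjusted p under 0.05, 7 of the 45 were lower and 2 higher, beside 5.42% and 5.76% of all genes tested. Below 0 were 34 of the 45 (median −0.32), beside 48.8% of all genes tested. Kcnip3, a calcium sensor that joins A-type channels, had 193 ± 53 CPM with the Ptbp1 shRNA and 540 ± 114 CPM with the scrambled shRNA (SD, n = 4 and 5, edgeR adjusted p = 0.0625). Nedd4l, a ubiquitin ligase that removes sodium and potassium channels from the membrane, had 456 ± 138 and 1119 ± 223 CPM (SD, n = 4 and 5, edgeR adjusted p = 0.0625). On the higher side were Ank3, the ankyrin that anchors channels at the axon initial segment, at 367 ± 23 and 233 ± 30 CPM, and its relative Ank2 at 853 ± 138 and 532 ± 170 CPM (SD, n = 4 and 5, edgeR adjusted p = 0.204 and 0.296). In overexpression 37 of 46 partner genes were below 0 (median −0.11), beside 50% of all genes tested. At an unadjusted p under 0.05, 0 were lower and 0 higher, beside 1.99% and 2.79% of all genes tested.

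The second comparison asked the same of the Ptbp1 vector against the control vector, where Ptbp1 itself rose. Summed over the 100 genes, the 5 Ptbp1 vector libraries had 3602, 4693, 4346, 5633 and 5801 CPM and the 4 control vector libraries 4821, 5508, 5312 and 5721 CPM. Replicates 1 to 3 of the Ptbp1 vector lay below every control and replicates 4 and 5 within or above their range. All 100 genes were tested and 0 passed (edgeR quasi-likelihood test, against 0.0425% of 16480 genes). At an unadjusted p under 0.05, 5 genes were lower (5%, against 1.99% of all genes) and 1 was higher (1%, against 2.79%). For 0 genes were all Ptbp1 vector libraries below all controls (against 0.686% of all genes) or above them (against 1.13%).

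The median log2 fold change was −0.09 beside 0.00 over all genes, and 72 of 100 genes were below 0 beside 50% of all genes. Replicate 1 of the Ptbp1 vector was the lowest of the 9 libraries for 49 of the 100 genes. Without it the median was −0.04 and 58 genes were below 0 beside 50.4% of all genes. Without replicate 5, in contrast, 13 genes (13%) were lower at an unadjusted p under 0.05, beside 3.15% of all genes. Without replicate 2, replicate 3 or control vector replicate 4, 2 genes (2%) were, beside 2.21%, 1.81% and 1.96% of all genes, so the share was near the background. Superficial excitatory markers summed to 2512, 2936, 2236, 3143 and 3018 CPM with the Ptbp1 vector. With the control vector they summed to 3118, 3249, 2794 and 2762 CPM. Of the 9 marker genes 5 were below 0. Marker and channel sums were both lowest in replicates 1 and 3 of the Ptbp1 vector. Control vector replicate 4 had the lowest marker sum and highest channel sum of the controls. Ptbp1 vector replicate 2 had a higher marker sum than control vector replicates 3 and 4 and a channel sum below every control. The ratio of channel to marker sums was 1.43, 1.6, 1.94, 1.79 and 1.92 with the Ptbp1 vector. It was 1.55, 1.7, 1.9 and 2.07 with the control vector, and the groups overlap. The part of the markers in the lower channel levels was not tested. Ptbp1 was at 136, 143, 158, 129 and 118 CPM in the same order of replicates.

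Intervals were narrow in overexpression. The median SE of the log2 fold change was 0.20, against 0.68 in silencing, and 84 of 100 genes had a 95% interval that lay within a 2-fold change in both directions. In silencing 10 of 93 genes had such an interval. In silencing the interval of the other 83 genes reached a 2-fold change in at least 1 direction.

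Scn8a was again among the lower genes, with 75.0, 127, 105, 174 and 184 CPM with the Ptbp1 vector and 156, 206, 191 and 212 CPM with the control vector. Replicates 4 and 5 overlapped the controls, and the log2 fold change was −0.53 ± 0.22 (SE, edgeR adjusted p = 0.974). Scn2a was at −0.25 (95% interval −0.69 to 0.18) and Scn1a at −0.34 (−0.87 to 0.18).

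Of the potassium channels, Kcnn1, an SK channel of the afterhyperpolarisation, had the smallest p of the set. It had 5.165, 4.79, 5.515, 6.87 and 5.57 CPM with the Ptbp1 vector and 6.14, 9.70, 8.23 and 8.29 CPM with the control vector, and only replicate 4 of the Ptbp1 vector exceeded the lowest control (−0.54 ± 0.18, SE, edgeR adjusted p = 0.843). Kcna4, an A-type pore (chr2:107290639-107298502), had 33.65, 44.8, 43.5, 53.5 and 52.7 CPM against 46.5, 62.4, 64.3 and 64.9 CPM (−0.38 ± 0.14, SE, edgeR adjusted p = 0.958). Kcnh7, an Erg-family pore, had 42.6, 68.9, 60.8, 96.2 and 92.3 CPM against 91.2, 113, 97.1 and 99.8 CPM (−0.48 ± 0.19, SE, edgeR adjusted p = 0.974). Kcnk2 had 31.4, 28.9, 35.3, 46.65 and 43.2 CPM against 37.6, 48.3, 48.0 and 58.6 CPM (−0.38 ± 0.16, SE, edgeR adjusted p = 0.974). In Kcna4, Kcnh7, Scn8a and Kcnk2 alike, the values above the lowest control were those of replicates 4 and 5.

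Scn8a, whose groups did not overlap in silencing, had an overexpression interval below 0 (95% interval −0.99 to −0.06). Cacnb4, Kcnma1, Kcnf1, Kcnq5, Kcnv1 and Kcnq3, also lower in silencing, had narrow intervals that held 0. Cacnb4 was at −0.09 (95% interval −0.33 to 0.16), Kcnma1 at −0.10 (−0.51 to 0.31), Kcnf1 at −0.15 (−0.53 to 0.23) and Kcnq5 at −0.07 (−0.53 to 0.39). Kcnv1 was at −0.28 (−0.60 to 0.04) and Kcnq3 at −0.16 (−0.45 to 0.14). By role, 25 of 31 voltage-gated potassium pores were below 0 (median −0.14), 7 of 8 calcium pores (−0.10), 5 of 7 sodium pores (−0.17) and 5 of 6 Cacng genes (−0.09). Inward rectifiers had 4 of 9 below 0, two-pore channels 3 of 7 and HCN genes 2 of 4. Kcnj3 was at −0.24 (−0.50 to 0.02) and Kcnh3 at −0.26 (−0.57 to 0.05).

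**Figure D4:**
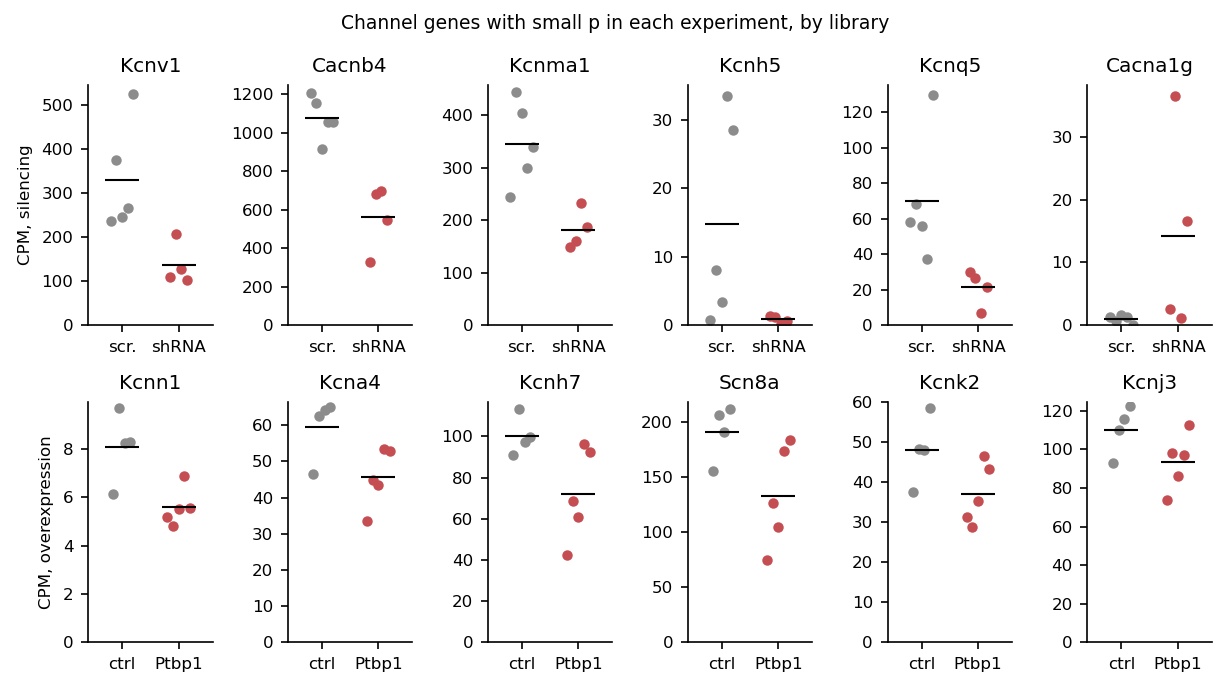
Levels (CPM) by library of 6 genes with small p in silencing (upper row) and 6 in overexpression (lower row), with grey points for controls, red points for Ptbp1 shRNA or Ptbp1 vector libraries and bars at group means. In Kcnv1, Cacnb4, Kcnma1 and Kcnq5 the groups do not overlap, and in all 6 genes of the lower row they do.

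Whether the responses differed between the experiments was tested over all 18 libraries. This fit gave both experiments 1 spread per gene, although the median SE within experiments was 0.68 in silencing and 0.20 in overexpression. In silencing the same fit called 1775 genes where the fit within the experiment called 0. The SE and p-values of the difference below rest on that shared spread. Of the 100 genes 0 passed (edgeR quasi-likelihood test of the difference, against 0.225% of 17779 genes). Of the genes named by rule, Cacna1g had the smallest p, with a difference of −3.94 ± 1.12 between log2 fold changes (overexpression minus silencing, SE, edgeR adjusted p = 0.119). Kcnh5 followed at 3.91 ± 1.17 and Cacnb4 at 0.85 ± 0.26 (SE, edgeR adjusted p = 0.133 and 0.134). Kcne3, an auxiliary potassium subunit chosen after its values were seen, had a smaller p than all of them (edgeR adjusted p = 0.067). It was at 0 in all 4 Ptbp1 shRNA libraries and at 2.76, 0.167, 1.49, 0.0872 and 0.260 CPM in the scrambled shRNA libraries, too low to pass the filter in silencing alone. Of the 93 genes tested in both experiments, 45 were below 0 in both, 10 above 0 in both, 14 below 0 in silencing alone and 24 below 0 in overexpression alone.

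Exon usage, the share of a gene's reads in each bin, was the readout closest to the known function of Ptbp1. In overexpression 887 bins of channel genes were tested and 0 passed (edgeR diffSpliceDGE, against 0.034% of 117580 bins), and 7 had an unadjusted p under 0.05 (0.789%, against 1.37%). In silencing 567 bins were tested and 0 passed (against 0.0012% of 83164 bins), and 11 had an unadjusted p under 0.05 (1.94%, against 1.96%). Both shares were at or below those of all bins.

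In overexpression the bin with the smallest p among those with coordinates was bin 003 of Kcna4, in an untranslated part (chr2:107294144-107294472). It held 7.55%, 9.30%, 9.73%, 5.99% and 7.38% of the gene's reads with the Ptbp1 vector and 4.14%, 5.40%, 6.06% and 4.46% with the control vector. The lowest Ptbp1 vector library fell within the range of the controls, and the adjusted p was 1 (edgeR diffSpliceDGE). Bin 001 of the same gene, also untranslated, had 5.35% ± 1.42 and 3.46% ± 0.99 (SD, n = 5 and 4, edgeR adjusted p = 1). A coding bin of Kcnh3, an Elk-family potassium channel (chr15:99241750-99241826), held 3.26% ± 0.65 of reads with the Ptbp1 vector and 1.61% ± 0.64 with the control vector, from a mean of 10.3 counts per library (SD, n = 5 and 4, edgeR adjusted p = 1). Bin 046 of Cacna1e (chr1:154701275-154701380), untranslated, went the other way, with 0.469% ± 0.148 against 0.854% ± 0.068 and without overlap (SD, n = 5 and 4, edgeR adjusted p = 1). A coding bin of Kcnh7 (chr2:62837066-62837280) held 1.83% ± 0.60 against 1.08% ± 0.10 (SD, n = 5 and 4, edgeR adjusted p = 1).

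In silencing the bins with the smallest p had values that differed widely between libraries. The part of uneven coverage in these differences was not tested. Bin 034 of Scn3a, a coding bin (chr2:65536413-65536726), had 2, 0, 0 and 6 counts with the Ptbp1 shRNA and 104, 76, 6, 33 and 219 counts with the scrambled shRNA. In Kcnab2, whose bins are merged with an overlapping gene in the flattened annotation, 3 neighbouring coding bins had lower usage with the Ptbp1 shRNA. Of these, bin 009 (chr4:152394988-152395023) held 0.622%, 0.191%, 0.159% and 0.136% of reads with the Ptbp1 shRNA and 10.04%, 7.32%, 0.955%, 4.69% and 3.05% with the scrambled shRNA. The groups did not overlap, and the adjusted p was 1 (edgeR diffSpliceDGE). Bins 034 and 036 of Cacna1a (chr8:84580063-84580223 and chr8:84581214-84581351) were highest in replicate 4 of the Ptbp1 shRNA, at 15.0% and 22.0% of reads, and at most 2.95% in every scrambled library. One library therefore carried both mean differences.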

How the data were processed

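The authors aligned reads with STAR 2.5.3a to mm10 and counted them with HTSeq, per the submitters' processing notes, and deposited raw counts per gene and per exon bin. The annotation release and strand setting were not given in the sources used here. Members and gene lists were chosen with earlier results of these data known. CPM were scaled by TMM factors, except for the membership threshold. Genes passing filterByExpr were tested within each experiment with edgeR 4.0.16 (R 4.3.3, quasi-likelihood, robust, Benjamini-Hochberg over all genes), bins with diffSpliceDGE, and the difference between experiments over all 18 libraries. DESeq2 1.42.0 and limma 3.58.1 were alternatives. Scripts were tested on simulated data. Bins were placed by rebuilding the flattened annotation from GENCODE M21, and 89.8% of single-gene identifiers had the same number of bins. Even so, 170 of 4175 genes that could be checked had bin positions at odds with their counts, Scn8a among them, so no coordinates are given for its bins and no exon pair was tested.

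Genes were named by rule: up to 10 with the smallest p per experiment, the highest gene per length in each role group, and a fixed list. The shares and coordinates of up to 8 bins per experiment followed the same rule. Some members and sequences are not reported here, and counts over the set include them. Other genes named were chosen after their values were seen. Each library is 1 mouse, and p-values measure the spread between mice.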

Additional observations from a re-analysis of the deposited data

Results flagged for a closer look

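Groups of libraries were checked for each named gene, for the summed channel level and for the median share of the fullest bin. In 10 of 136 such checks 1 library stood apart from the others by Dixon's criterion, which chance alone meets in about 1 in 20. In silencing, scrambled shRNA replicate 4 was high for Kcna2 (339.5 CPM, others 125 to 182) and Kcnn1 (6.256 CPM, others 0 to 0.239). Scrambled shRNA replicate 5 was high for Kcnf1 (55.69 CPM, others 22.8 to 31.2) and Kcnmb4os1 (17.38 CPM, others 3.47 to 6.27). Scrambled shRNA replicate 3 was high for Kcnj10 (1.604 CPM, others 0 to 0.0218) and replicate 1 for Kcnj12 (4.345 CPM, others 0 to 1.18). Ptbp1 shRNA replicate 4 was high for Kcnh3 (18.15 CPM, others 0.561 to 2.90).

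In overexpression, control vector replicate 1 was low for Cacng3 (92.33 CPM, others 98.0 to 98.4) and Kcna4 (46.48 CPM, others 62.4 to 64.9). Ptbp1 vector replicate 2 was high for Kcnj10 (4.207 CPM, others 1.86 to 2.36).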

How the results depend on the processing

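In silencing, DESeq2 called 9 channel genes, limma voom with quality weights 1 and a fit in which all 18 libraries share 1 spread 10, where edgeR within the experiment called 0, and these called 703, 84 and 1775 genes in all. In the fit with 1 spread, 10 of 100 channel genes stood beside 1775 of 17779 genes, nearly the same share. The cause of the difference between these fits was not tested. Leaving out 1 library at a time, another scaling, no filter on low counts, and leaving out the 2 least evenly covered libraries (chosen after seeing the data) each gave 0. The median log2 fold change ran from −0.5298 to −0.3026 with 1 library left out (−0.3026 without scrambled shRNA replicate 4, −0.3204 without replicate 5, −0.3498 without replicate 2). In overexpression 0 channel genes were called under every alternative run, while the median ran from −0.1726 (without Ptbp1 vector replicate 4) to −0.037 (without replicate 1), and −0.1607 without replicate 5 and −0.0548 without control vector replicate 4. Genes lower at an unadjusted p under 0.05 numbered 2 to 13 with 1 library left out, with 2 without Ptbp1 vector replicate 2 or 3 or control vector replicate 4 (2%, beside 2.21%, 1.81% and 1.96% of all genes), 3 without control vector replicate 2 (3%, beside 1.67%), 8 without control vector replicate 1 (8%, beside 2.33%), 10 without Ptbp1 vector replicate 4 (10%, beside 2.51%) and 13 without replicate 5 (13%, beside 3.15%). For the difference between experiments 0 to 1 channel genes were called with 1 library left out. Kcnj10 was called without scrambled shRNA replicate 3, among 43 genes in all. Cacng7 was called without Ptbp1 shRNA replicate 4, among 174, and Kcne3 without scrambled shRNA replicate 5, among 115. The fit on all libraries called 40 genes, and fits with 1 library left out called 1 to 174. How many genes each of these fits tested was not recorded, so no share of all genes is given. No bin of a channel gene was called under any alternative run. No paired analysis was possible because the replicate numbers do not come from the labels and pair no animals across groups. Alternatives for the exon pairs were not run, since no pair was tested. Uneven coverage limits levels per length and exon usage in silencing. Levels per length in the control vector libraries also take coverage as even along a gene.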
